A study of Vigna radiata with 42 samples.

Results

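Leaves of mung bean seedlings that had met salt before were compared with leaves of seedlings that met it for the first time, 3 and 6 h after the final salt began. T1 seedlings of cultivar Weilv 9 had spent 24 h in 100 mM NaCl, had recovered for 48 h without salt, and were then given 100 mM NaCl again. T2 seedlings received 100 mM NaCl once, with no earlier salt. The comparison takes the 12 libraries at 3 and 6 h out of 42 in the series: 3 of T1 at 3 h, 3 of T1 at 6 h, 3 of T2 at 3 h and 3 of T2 at 6 h. The libraries of each group were taken by label. These hours were chosen for pooling because earlier tests of the same data had found few differences at either hour by itself. All seedlings were germinated for 2 days, kept in trays for 3 days and then moved to nutrient solution at 25 °C with 16 h of light and 8 h of dark, and the first fully expanded true leaves were taken. All 4 groups were in salt, so the comparison holds no unsalted leaves of the same hour. The labels do not say whether T1 and T2 seedlings had the same age when the final salt began, so age and earlier salt cannot be told apart.

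Salt in the root medium acts on a plant first as an osmotic stress, which limits water uptake and closes stomata, and later as an ionic stress, as sodium and chloride build up in the leaves. Abscisic acid signalling, calcium signalling and the export or vacuolar storage of sodium are among the known responses. An earlier exposure can alter the response to a later one, which is known as priming or stress memory. Here the earlier salt had the same concentration as the final salt. The comparison describes leaves after such an exposure, but cannot separate its effect from that of seedling age. The table names genes by ID only. None of its 28740 IDs was matched to a named gene (0 matches), so genes are described here by level, course and neighbouring IDs, and no function is given. Leaf identity could not be checked against marker genes for the same reason.

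Values are the normalized expression signal that the authors deposited, compared as log2(value + 1). This scale understates changes of genes near 0. Testing was limited to the 18326 genes (63.8% of the table) that reached a value of 1 in no fewer than 3 of the 12 libraries. A gene is called at an adjusted p under 0.05 in limma, with the p-values adjusted by the Benjamini-Hochberg method over all 18326 genes. Differences are T1 minus T2 throughout.

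Very few genes were called between pre-conditioned and directly salted leaves at these hours. The number called is not the number of genes that differ, and it moved with the libraries and settings. Over 3 and 6 h, with the hour as a block, 9 genes were called, or 0.0491% of those tested. Of these, 4 genes were higher in T1 (0.0218%) and 5 were lower (0.0273%). An unadjusted p under 0.05 was reached by 3291 genes, or 18%, with 1493 higher and 1798 lower in T1. In the same fit 7429 genes (40.5%) were called between 6 and 3 h, so far more genes were called between the hours than between the treatments. In whole leaves, fewer cells of a type and less RNA per cell cannot be told apart. For 17410 genes, or 95% of those tested, the 95% confidence interval of the treatment difference lay inside a 2-fold change in either direction. For 14264 genes (77.8%) it lay inside 1.5-fold. The median difference was 0.01, and the middle of the distribution from the 5th to the 95th percentile ran from -0.33 to 0.38.

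The count of 9 depended on single libraries and on the settings. It became 188 without T1 6 h replicate 3, of which 75 genes were higher and 113 lower in T1, and 24 without T2 3 h replicate 2. All 9 genes were among these 188 and these 24. It was 0 when T1 6 h replicate 1 or 2, T2 3 h replicate 1 or 3, or T2 6 h replicate 1 was left out, with 2466 to 3213 genes at an unadjusted p under 0.05. It was 2 without T1 3 h replicate 2 or T2 6 h replicate 2, 4 without T1 3 h replicate 3 or T2 6 h replicate 3, and 8 without T1 3 h replicate 1. T1 6 h replicate 3 correlated at 0.980 on average with the T2 libraries of 6 h and at 0.972 with its own group. With array weights, which give less weight to libraries far from the fit, 1084 genes were called, 391 higher and 693 lower in T1. Scaling every library to the same total called 882 genes, 58 higher and 824 lower, and shifted the median of all genes to -0.08. With a block for the replicate number within the hour, 0 genes were called.

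The libraries differed from each other mainly by hour. The mean Pearson correlation over genes was 0.976 between libraries of the same group, 0.971 between treatments at the same hour and 0.937 between hours of the same treatment. Column totals of the table averaged 1041540 ± 88357 in T1 and 966119 ± 91622 in T2 (SD, n = 6 each), with an exact permutation p of 0.005, the smallest that the 400 exchanges of labels within the hour allow, and 0.03 after adjustment over 6 measures. The 10 most abundant genes held 13.3% ± 2.81 of the signal in T1 and 12.1% ± 2.79 in T2 (SD, n = 6 each; exact permutation p = 0.02, adjusted 0.06). Low values rise in steps of single reads. The inverse of this step, relative to the median library, averaged 0.985 ± 0.0704 in T1 and 1.13 ± 0.156 in T2 (SD, n = 6 each, exact permutation p = 0.035, adjusted 0.07). It holds read depth and the scaling of the column together, so with unequal column totals it is not depth alone. The part of these measures in the gene differences was not tested. Genes at a value of 1 or more numbered 17611 ± 298 in T1 and 17479 ± 163 in T2 (SD, n = 6 each; exact permutation p = 0.2, adjusted 0.24).

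All 9 called genes had T1 and T2 libraries that did not overlap at either hour. Over all genes tested, 614 showed such a separation in the same direction at both hours, or 3.35%, with 237 above (1.29%) and 377 below (2.06%). The called differences were moderate, from 0.44 to 0.94 in absolute size. All 9 were below 2-fold on this scale, and 5 of them were also called between 6 and 3 h.

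**Figure D1:**
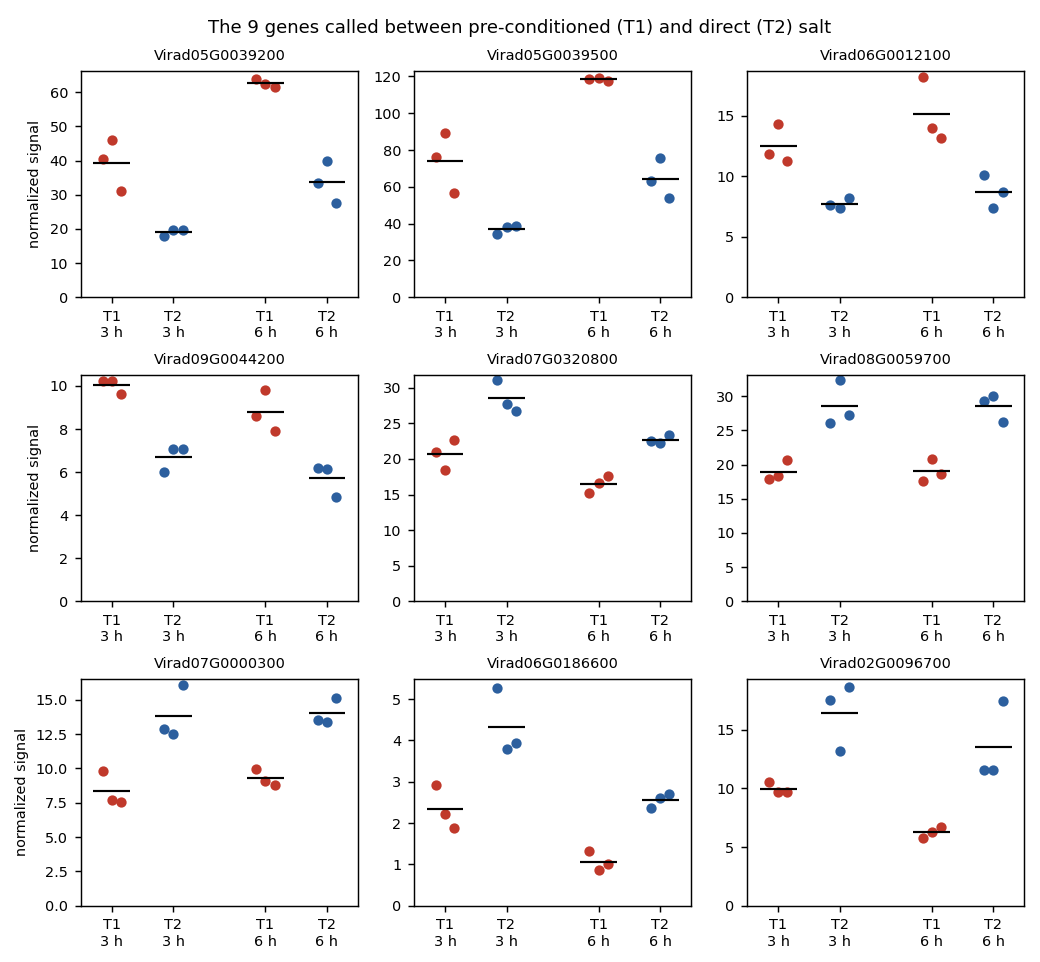
Normalized signal (vertical axes, linear, from 0) of the 9 called genes in each library at 3 and 6 h, T1 in red and T2 in blue, with black lines at the means of 3 libraries. In each panel the T1 and T2 points of the same hour do not overlap, with 4 genes higher and 5 lower in T1.

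The smallest p belonged to Virad05G0039200. Its signal at 3 h was 40.6, 46.0 and 31.1 in the T1 libraries, against 18.0, 19.7 and 19.7 in T2. Later, at 6 h, it was 64.1, 62.5 and 61.5 in T1, against 33.5, 39.9 and 27.5 in T2. The lowest T1 library stood above the highest T2 library at each hour, and the gene was also higher at 6 h than at 3 h (0.72, adjusted p = 0.000242). The difference was 0.94 ± 0.10 (log2, SE; limma adjusted p = 0.0185), with 0.98 at 3 h and 0.89 at 6 h.

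Virad05G0039500 had the same course at a higher level. At 3 h it measured 76.4, 89.4 and 56.5 in T1, against 34.6, 38.0 and 38.6 in T2. The 6 h libraries had 119, 119 and 118 in T1, against 63.0, 75.7 and 54.0 in T2. The difference was 0.92 ± 0.11 (log2, SE; limma adjusted p = 0.0227). Its ratio to Virad05G0039200 stayed between 1.81 and 2.00 in all 42 libraries, with a median of 1.90. Such a fixed ratio can come from reads of near-identical copies shared between 2 IDs, which was not tested, so the pair cannot be counted as 2 separate results. The IDs between them did not share the difference: Virad05G0039300 differed by 0.07 (adjusted p = 0.758) and Virad05G0039400 by 0.02 (adjusted p = 0.905). The abundant neighbour Virad05G0039700 averaged 931 in T1 and 767 in T2, a difference of 0.35 that was not called (adjusted p = 0.239).

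The other called genes that were higher in T1 were less abundant. Virad06G0012100 had 11.9, 14.4 and 11.2 in T1 at 3 h, against 7.64, 7.36 and 8.19 in T2, and 18.2, 13.99 and 13.2 in T1 at 6 h, against 10.1, 7.39 and 8.70 in T2. Its difference was 0.67 ± 0.098 (log2, SE; limma adjusted p = 0.0454), and the nearest libraries of the treatments at 6 h were 13.2 and 10.1. Virad09G0044200 had 10.2, 10.2 and 9.63 in T1 at 3 h, against 6.00, 7.07 and 7.05 in T2. By 6 h it had 8.59, 9.83 and 7.92 in T1, against 6.20, 6.15 and 4.85 in T2. Every T1 value lay above every T2 value of either hour, and the difference was 0.53 ± 0.079 (log2, SE; limma adjusted p = 0.0476).

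Among the genes lower in T1, Virad08G0059700 had the smallest p. At 3 h it measured 17.9, 18.3 and 20.7 in T1, against 26.1, 32.4 and 27.3 in T2. The values at 6 h were 17.7, 20.8 and 18.6 in T1, against 29.3, 29.98 and 26.3 in T2. The group means hardly differed between the hours, and T1 lay below T2 in every comparison of libraries, with a difference of -0.56 ± 0.071 (log2, SE; limma adjusted p = 0.0274). Virad07G0320800 measured 21.02, 18.5 and 22.7 in T1 at 3 h, against 31.0, 27.7 and 26.8 in T2. By 6 h it was at 15.3, 16.6 and 17.6 in T1, against 22.5, 22.3 and 23.4 in T2. It was lower at 6 h than at 3 h in both treatments, and its treatment difference of -0.44 ± 0.064 (SE; limma adjusted p = 0.0454) was the smallest of the 9.

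Virad02G0096700 showed the largest drop among the called genes. At 3 h its signal was 10.5, 9.70 and 9.73 in T1, against 17.5, 13.2 and 18.7 in T2. At 6 h it was 5.78, 6.32 and 6.75 in T1, against 11.6, 11.6 and 17.4 in T2. The T1 libraries were tight and the T2 libraries more spread, and the difference was -0.81 ± 0.12 (log2, SE; limma adjusted p = 0.0454). It was -0.65 at 3 h and -0.97 at 6 h.

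Virad07G0000300 measured 9.79, 7.68 and 7.56 in T1 at 3 h, against 12.9, 12.5 and 16.1 in T2. Its 6 h values were 9.93, 9.11 and 8.82 in T1, against 13.5, 13.4 and 15.1 in T2. The level hardly moved with the hour, and the difference was -0.61 ± 0.085 (log2, SE; limma adjusted p = 0.0454). The neighbouring ID Virad07G0000400 averaged 14.2 in T1 and 22.7 in T2, a difference of -0.64 that missed the threshold (adjusted p = 0.0532). Over 42 libraries its ratio to Virad07G0000300 ran from 1.204 to 2.80, so this pair was not locked as the Virad05 pair was.

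Virad06G0186600 was the faintest called gene and falls outside the rule for naming genes, which asks for a mean of at least 5. It is named because it completes the 9. Its signal at 3 h was 2.92, 2.21 and 1.89 in T1, against 5.27, 3.78 and 3.95 in T2. In the 6 h libraries it was 1.32, 0.869 and 1.02 in T1, against 2.37, 2.60 and 2.71 in T2. T1 was below T2 at both hours, with a difference of -0.73 ± 0.11 (log2, SE; limma adjusted p = 0.0454).

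The 30 libraries at 0, 1, 12, 24 and 48 h were not used in these calls, so the 9 genes could be followed there. In a separate limma fit to those 30 libraries, T1 and T2 differed for 721 genes (3.93%), 1357 genes (7.4%), 145 genes (0.791%), 415 genes (2.26%) and 4481 genes (24.5%), in the order of time. Of the 9 genes, 7 had the same direction as at 3 and 6 h both 1 h and 12 h after the salt began, and 4 had it at each of the other times. Called in that direction were 3 at 1 h and 1 at 24 h, and 0 at the remaining times. Called in the opposite direction were 3 at 48 h. The pair Virad05G0039200 and Virad05G0039500 makes up 2 of the 3 at 1 h and 2 of the 3 at 48 h.

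The Virad05 pair changed sign over the course. Virad05G0039200 averaged 30.1 ± 10.2 in T1 and 42.8 ± 3.98 in T2 at 0 h, when T1 was not called lower (-0.55, adjusted p = 0.0802). At 1 h the order had turned, with 29.7 ± 6.50 in T1 and 18.5 ± 1.12 in T2 (0.64, adjusted p = 0.0323; SD, n = 3 each; limma). At 12 h it averaged 135 ± 7.58 in T1 and 121 ± 4.39 in T2, with every T1 library above every T2 library and a difference of 0.16 that was not called (adjusted p = 0.879). At 24 h T1 averaged 113 ± 4.94 and T2 174 ± 8.30 (-0.61, adjusted p = 0.0731), and at 48 h T1 averaged 68.3 ± 10.4 and T2 122 ± 21.4 (-0.82, adjusted p = 0.00241). Virad05G0039500 was likewise called higher in T1 at 1 h (0.64, adjusted p = 0.0302) and lower at 48 h (-0.78, adjusted p = 0.00337).

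Of the genes lower in T1, Virad08G0059700 was also called lower at 1 h, with 38.0 ± 4.33 in T1 and 67.2 ± 9.39 in T2 (-0.80, limma adjusted p = 0.0121; SD, n = 3 each). Its difference at 0 h was -0.67, with an adjusted p of 0.0525. Virad02G0096700 was called lower at 24 h, with 8.47 ± 1.08 in T1 and 20.6 ± 3.62 in T2 (-1.18, limma adjusted p = 0.0180). At 48 h it averaged 11.7 ± 3.11 in T1 and 12.0 ± 1.37 in T2. Virad07G0320800 turned: at 48 h it averaged 32.1 ± 3.05 in T1 and 18.8 ± 1.85 in T2 and was called higher in T1 (0.74, limma adjusted p = 0.000211). Virad07G0000300 lay below T2 at all 5 other times, by -0.72, -0.22, -0.59, -0.53 and -0.31 in the order of time, and was called at none of them. Virad06G0012100, Virad09G0044200 and Virad06G0186600 were called at none of the other times.

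**Figure D2:**
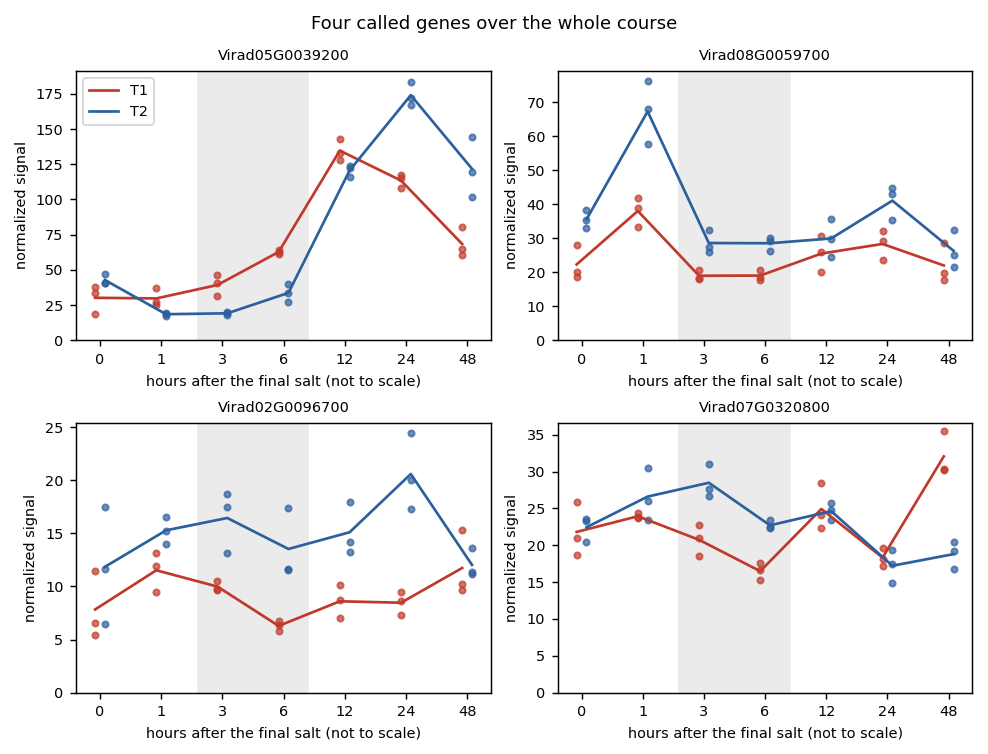
Normalized signal (vertical axes, linear, from 0) of 4 called genes at 7 times after the final salt (horizontal axes, not to scale), T1 in red and T2 in blue, with points for libraries, lines through means of 3 and grey shading over 3 and 6 h. Virad05G0039200 is above T2 at 1 to 6 h and below it at 24 and 48 h, Virad08G0059700 and Virad02G0096700 are below T2 at most times, and Virad07G0320800 is above T2 at 48 h.

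Taken by hour, no gene was called. Few differences at either hour had been the reason for pooling, so this is a description and not a separate result. At 3 h 0 genes passed in limma, with a smallest adjusted p of 0.103 and 2535 genes (13.8%) at an unadjusted p under 0.05. At 6 h 0 genes passed, with a smallest adjusted p of 0.218 and 1973 genes (10.8%) at an unadjusted p under 0.05. The test of whether the treatment difference itself changed between the hours called 0 genes, with a smallest adjusted p of 0.511 and 1166 genes (6.36%) at an unadjusted p under 0.05. The count at 3 h was 11 once T2 6 h replicate 2 was left out and 5 once T1 3 h replicate 3 was, which also gave 1 gene for the interaction. With the spread taken from all 42 libraries, 94 genes were called at 3 h, 14 at 6 h and 845 over both hours, 306 higher and 539 lower in T1. Across the 18326 genes the differences at 3 and 6 h, which share no library, correlated at a Pearson r of 0.25 and a Spearman rho of 0.29. These are correlations across genes, which are not independent replicates. Of the 2535 genes at 3 h, 1839 (72.5%) had the same sign at 6 h, against 62.4% of all genes.

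**Figure D3:**
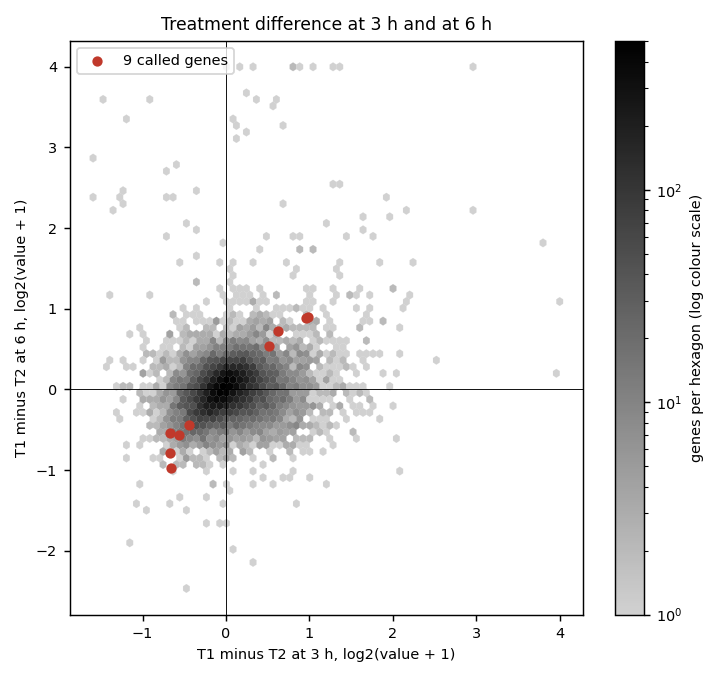
Log2 difference T1 minus T2 at 3 h (horizontal axis) and at 6 h (vertical axis) for the 18326 genes tested, as hexagons shaded by the number of genes on a log colour scale, with the 9 called genes in red. Most genes lie near 0 on both axes, and 12 genes beyond 4 log2 units are drawn at the edge. The called genes lie close to the diagonal and within 1 log2 unit of 0. They were picked by the fit over both hours, which favours similar differences at 3 and 6 h.

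The genes with the smallest interaction p give the size of hour-dependent differences, none of them called (adjusted p = 0.511 for each in limma). Virad08G0147700 had 20.9, 22.4 and 26.6 in T1 at 3 h, against 25.4, 30.4 and 34.1 in T2, and 38.2, 40.0 and 28.2 in T1 at 6 h, against 20.0, 14.8 and 16.2 in T2. Its groups overlapped at 3 h and were apart at 6 h, and the interaction was 1.36. Virad06G0013800 had T1 below T2 at 3 h (-0.51) and above it at 6 h (0.55), with no overlap at either hour. Virad10G0238000 was lower in T1 at 3 h, with 0.765, 1.01 and 1.29 in T1 against 3.51, 3.26 and 4.19 in T2, and within the spread at 6 h. Its difference at 1 h, in other libraries, was -1.78 and was called (adjusted p = 2.24e-06). In the opposite direction, Virad06G0209800 had 7.51, 9.94 and 5.47 in T1 at 3 h, against 2.07, 1.68 and 1.92 in T2, and 1.42, 3.31 and 0.901 in T1 at 6 h, against 3.58, 2.54 and 3.22 in T2. Its interaction was -2.14. Virad07G0067700 (-1.72) and Virad03G0254800 (-1.31) were faint, with means under 1 in each treatment.

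The largest differences in size were not the called ones. In all, 112 genes differed by at least 1 on the log2 scale, 104 of them higher in T1 and 8 lower. None of the 112 was called (0 in limma), and 88 had an unadjusted p under 0.05. They were chosen by their size, so their direction at 3 and 6 h is a description. Over the 104 genes the median log2 level above the T2 median of the hour was 1.08, 1.41 and 1.37 in the T1 libraries at 3 h and 1.94, 1.93 and 0.61 at 6 h, so T1 6 h replicate 3 was the low one. In libraries of other times the same 104 genes had a median T1 minus T2 difference of 0.62, 0.12, 1.57, 1.09 and 0.32 from 0 to 48 h. The median over all genes was -0.05 at 0 h and nearer to 0 at the later times. Of the 104, 2 (1.92%) were called higher and 1 (0.962%) lower at 0 h, against 1.39% and 2.55% of all genes. At 1 h 1 (0.962%) was called higher and 0 lower, against 2.94% and 4.46% of all genes. At 12 h 35 (33.7%) were called higher and 0 lower, against 0.437% and 0.355% of all genes. The counts were 29 (27.9%) and 0 at 24 h, against 1.06% and 1.2% of all genes. At 48 h 32 (30.8%) were called higher and 6 (5.77%) lower, against 14.3% and 10.2% of all genes. A run of neighbouring IDs on Virad03, described below, supplies 17 of the 104, so these counts are not all separate results.

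The largest single difference was 3.98, in Virad09G0020600 (limma adjusted p = 0.0980). At 3 h it measured 152, 223 and 517 in T1, against 8.71, 45.8 and 75.2 in T2. The 6 h libraries held 659, 140 and 7.25 in T1, against 2.68, 4.56 and 0.237 in T2. The groups did not overlap at either hour, yet the T1 libraries of 6 h spanned almost the whole range. In other libraries it was called higher in T1 at 24 h (8.89, adjusted p = 0.000537) and 48 h (8.13, adjusted p = 0.000166), with group means of 1972 ± 2199 in T1 and 1.81 ± 1.47 in T2 at 24 h (SD, n = 3 each). On the lower side, Virad06G0112300 differed by -1.54 (adjusted p = 0.169) but was called higher in T1 at 48 h (3.13, adjusted p = 0.0136). Lower too were Virad08G0181200 by -1.47 (adjusted p = 0.135) and Virad07G0368700 by -1.25 (adjusted p = 0.0884). Virad08G0181200 was called lower in T1 from 12 to 48 h, by -1.73, -2.44 and -1.96, with adjusted p of 0.0385, 0.00283 and 0.00142.

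A run of neighbouring IDs stood out among the large differences. It was chosen after its values were seen. Of the 23 IDs from Virad03G0260400 to Virad03G0262600, all 23 were tested, 17 were among the 104 genes higher by at least 1, and 21 had a difference above 0. Their differences ran from -0.40 to 3.12 with a median of 1.96, against 0.01 over all genes. In this run 14 genes had an unadjusted p under 0.05, and 0 were called. Genes of the run can move together: Virad03G0262200 and Virad03G0261300 correlated at 0.987 across all 42 libraries on the log2 scale. Counts of genes in the run are therefore not counts of separate results. Whether these IDs share reads was not tested. The median signal of the 23 genes was 19.1, 34.0 and 73.1 in T1 at 3 h, against 19.3, 126 and 4.55 in T2. In the 6 h libraries it was 112, 56.3 and 6.86 in T1, against 1.33, 1.86 and 1.01 in T2. The treatments overlapped at 3 h, where T2 replicate 2 was the highest of all 42 libraries, and were apart at 6 h, where T1 replicate 3 was low. The median difference was 0.27 at 3 h and 3.29 at 6 h. On leaving out each library, the pooled median of 1.96 ran from 1.501, without T1 6 h replicate 1, to 2.71, without T2 3 h replicate 2.

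The same run was followed in libraries of other times. It holds genes picked for their differences at 12 h, so its calls at 12 h are no separate result. At 12 h, 16 of the 23 genes were called higher in T1 and 0 lower, with a median difference of 3.31. The median signal was then 20.4, 29.8 and 34.8 in T1, against 2.79, 1.11 and 1.16 in T2. There were 16 called higher at 24 h and 13 at 48 h, and 0 at 0 and 1 h. Over all genes, 0.437%, 1.06% and 14.3% were called higher at 12, 24 and 48 h, and 1.39% and 2.94% at 0 and 1 h. At 0 h the medians overlapped, with 9.76, 15.2 and 27.9 in T1, against 1.28, 20.7 and 2.56 in T2. From 6 to 48 h the median ran from 3.02 to 112 over the 12 T1 libraries and from 0.459 to 2.79 over the 12 T2 libraries, without overlap.

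**Figure D4:**
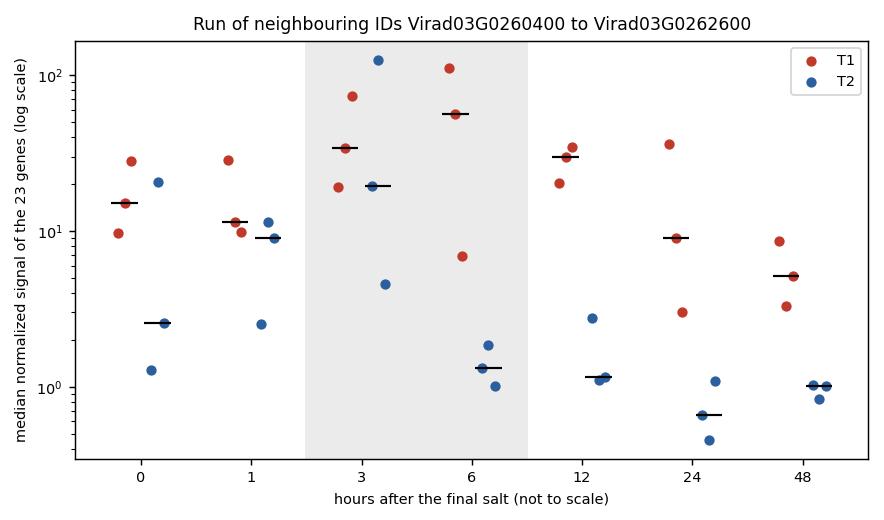
Median normalized signal (vertical axis, log scale) of the 23 genes from Virad03G0260400 to Virad03G0262600 in each of 42 libraries at 7 times after the final salt (horizontal axis, not to scale), T1 in red and T2 in blue, with black lines at the median of 3 libraries and grey shading over 3 and 6 h. T2 lies at 0.459 to 2.79 from 6 h on, T1 stays above it, and T2 3 h replicate 2 at 126 and T1 6 h replicate 3 at 6.86 depart from their groups.

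Single genes of the run show how wide the libraries spread. Virad03G0262200 measured 15.2, 38.9 and 86.2 in T1 at 3 h, against 10.2, 70.3 and 2.87 in T2. At 6 h it measured 160, 145 and 5.53 in T1, against 0.942, 1.79 and 0.204 in T2. The treatments were apart at 6 h only, and the pooled difference of 3.12 ± 1.00 (SE) had an adjusted p of 0.144. Virad03G0261300 differed by 3.01 (adjusted p = 0.161), Virad03G0262300 by 2.66 (adjusted p = 0.186) and Virad03G0260700 by 2.64 (adjusted p = 0.186). These 4 genes had been picked for the largest differences among genes called higher in T1 at 12 h. Their calls at 12 h are therefore no separate result. Their differences there ran from 4.44 for Virad03G0260700 to 4.70 for Virad03G0261300.

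Genes defined at other times were set beside these hours. The 80 genes called higher in T1 at 12 h had a median difference of 0.75 over 3 and 6 h, with 0.45 at 3 h and 0.97 at 6 h. Of them 97.5% were above 0, against 52.8% of all genes, and 52 (65%) were higher at an unadjusted p under 0.05, against 8.15% of all genes. None of the 80 was called at 3 and 6 h (0 genes). They share 35 genes with the 104 described above, which is 43.8% of the 80 and 33.7% of the 104. The run of neighbouring IDs on Virad03 holds 16 of the 80 and 17 of the 104, so these counts are not all separate results. The 65 genes called lower in T1 at 12 h had a median of -0.35, and 34 of them (52.3%) were lower at an unadjusted p under 0.05, against 9.81% of all genes. In this list the treatments overlapped at 6 h. The median deviation from the mean of the hour was 0.12 in T1 6 h replicate 3, against 0.19, 0.11 and 0.16 in T2. The lists from 1 h had medians of the same signs at a smaller size. The 539 genes higher in T1 at 1 h had a median of 0.13, with 130 (24.1%) higher and 5 (0.928%) lower at an unadjusted p under 0.05. The 818 genes lower at 1 h had a median of -0.09, with 13 (1.59%) higher and 131 (16.0%) lower. Over all genes the shares were 8.15% higher and 9.81% lower. With every library scaled to the same total, the medians were 0.02 for the 539 and -0.19 for the 818.

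Of the lists taken from the course of directly salted leaves, those lowered by 24 h had the largest median. In T2 libraries of 0 and 24 h alone, 445 genes were lowered at least 2-fold. Over 3 and 6 h their median T1 minus T2 difference was 0.25, and 79.1% were above 0. It was 0.38 at 3 h and 0.09 at 6 h. Of the 445, 97 (21.8%) were higher in T1 and 13 (2.92%) lower at an unadjusted p under 0.05, against 8.15% and 9.81% of all genes. The 427 genes raised at least 2-fold in T2 by 24 h had a median of -0.12, with 8 (1.87%) higher and 63 (14.8%) lower. The 1024 genes raised in T2 at 1 h had a median of -0.05 and the 368 lowered at 1 h had one of 0.12. Among the 368 were 2 of the called genes, the Virad05 pair with the fixed ratio, which cannot be counted as 2 separate results. The 427 raised by 24 h also held 2 genes called higher in T1, against the sign of their median. Virad05G0039200 averaged 42.8 in T2 at 0 h and 174 at 24 h. Lists raised in T2 at 12 h, at 48 h and from 1 to 12 h held 2 each too, with medians below 0. Over all genes 0.0218% were called higher. The sizes of these medians depended on the scaling. With every library scaled to the same total, they were 0.16 for the 445, -0.21 for the 427, -0.15 for the 1024 and 0.02 for the 368, and the median of all genes was -0.08. Array weights gave -0.07 for the 427 and 0.07 for the 368. The 427 had -0.08 without T1 6 h replicate 2, and the 1024 had -0.01 without T2 3 h replicate 2.

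**Figure D5:**
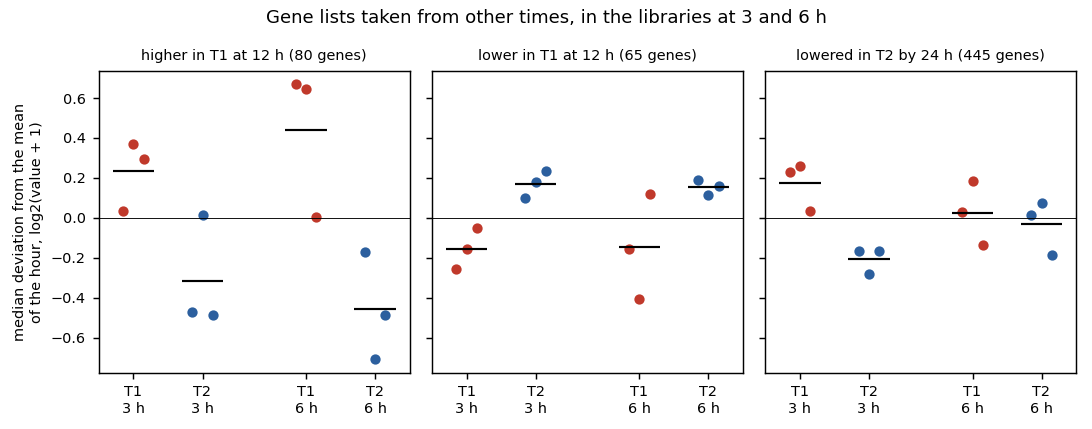
Median deviation from the mean of the hour, in log2(value + 1) (vertical axis), of 3 gene lists taken from other times, in each library at 3 and 6 h, T1 in red and T2 in blue, with black lines at the mean of 3 libraries. The 80 genes higher in T1 at 12 h lie higher in the T1 means at both hours, with T1 6 h replicate 3 at 0.01 and T2 3 h replicate 2 at 0.02, and the 445 genes lowered in T2 by 24 h are apart at 3 h and overlap at 6 h. For the genes lower in T1 at 12 h, T1 6 h replicate 3 at 0.12 lies among the T2 libraries of 6 h.

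Over all genes, the direction at 3 and 6 h matched that at other times somewhat more often than not. For the 3291 genes with an unadjusted p under 0.05, the share with the same sign was 62.4%, 70.1%, 69.3%, 69.7% and 61.5% at the 5 other times, in order. For all genes it was 53.8%, 57.8%, 58.5%, 56.9% and 54.0%. Of the 3291, 93 were called in the same direction and 20 in the opposite direction at 0 h. The counts were 261 and 18 at 1 h, 86 and 0 at 12 h, 81 and 4 at 24 h, and 571 and 262 at 48 h. Both directions together made 3.43%, 8.48%, 2.61%, 2.58% and 25.3% of the 3291, against 3.93%, 7.4%, 0.791%, 2.26% and 24.5% of all genes, so the share was close to the background except at 12 h.

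Just past the threshold lay 262 genes with an adjusted p of 0.05 to 0.10, 95 higher and 167 lower in T1. The next in p, named after their values were seen, were at 0.0532. Virad08G0269500 averaged 3.38 in T1 and 1.14 in T2, a difference of 1.03. Virad03G0022300 was at 0.681, 1.04 and 1.19 in T1 at 3 h and listed at 0 in all 3 T2 libraries of that hour, and at 6 h it was at 2.15, 2.69 and 0.878 in T1, against 0.488, 0 and 0.317 in T2. In other libraries it was called higher in T1 at 12 h (2.59, adjusted p = 0.00344). Virad05G0176200 was tight at both hours, with 18.8, 17.5 and 17.8 in T1 at 3 h, against 23.8, 22.01 and 24.3 in T2, and differed by -0.33. At the filter's edge, 256 genes reached a value of 1 in exactly 3 of the 12 libraries, with a median mean of 0.784, and 314 in exactly 2, with one of 0.675.

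Plastid and mitochondrial transcripts mostly lack stable poly(A) tails, so poly(A) libraries hold only part of them. Of 26 IDs with a Pt prefix 24 were tested, and all 24 had a difference above 0, from 0.03 to 1.04 with a median of 0.39. With every library scaled to the same total, 20 of the 24 were above 0, with a median of 0.30, and with quantile normalization 23 were. At an unadjusted p under 0.05 there were 7, and 0 were called. They share their library and move together: their summed share of the signal was 0.183%, 0.247% and 0.748% in T1 at 3 h, against 0.279%, 0.177% and 0.167% in T2. At 6 h it was 0.316%, 0.423% and 0.214% in T1, against 0.264%, 0.291% and 0.196% in T2. The treatments overlapped at both hours (exact permutation p = 0.185, adjusted 0.24, n = 6 each). The lowest p was that of ViradPtG0003300, with 9.21, 11.02 and 11.8 in T1 at 3 h, against 9.23, 7.76 and 7.34 in T2, and a pooled difference of 0.44 (adjusted p = 0.0896). Of 44 IDs with an Mt prefix only 5 were tested, with 0 called. ViradMtG0003300 differed by -0.17 (adjusted p = 0.662).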

How the data were processed

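Poly(A) RNA of leaves was sequenced on the DNBSEQ platform, per the labels' protocols. The submitters' processing notes name fastp 1.0.1, HISAT2 2.2.1, featureCounts with no version, and DESeq2 1.48.2. Not given in the sources used here are the genome build, the annotation, the strand setting and how reads that fit several genes were counted. The authors deposited 1 table of normalized signal, 1 value per gene and library, which they call TPM. Its columns sum to different totals, so the libraries were scaled in a further, undescribed way, on which the comparisons rest. The plan for this work took the values as a normalized signal, not as counts, and no count model was used. Absolute depth is unknown. The inverse step of low values, which holds depth and column scaling together, ran from 0.912 to 1.42 over the 12 libraries. It was judged from 4371 low values, of which 95.1% became whole reads (tolerance 0.1) when each library had its own step size. No counting interval is given.

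The model on log2(value + 1) was run in limma 3.58.1 (R 4.3.3). It had the hour as a block and a robust trend for the variance. Tests are two-sided and adjusted over all 18326 genes in each contrast. Other times were fitted separately on 30 libraries. Single measures per library were tested by exact permutation within the hour with Python 3.11.15, numpy 2.4.6, scipy 1.17.1 and pandas 2.3.3, and figures were drawn with matplotlib 3.10.9. The labels do not say what plants make up a replicate, so p-values measure the spread between these libraries, which may be technical.

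T1 and T2 share replicate numbers, which the labels do not tie to a common plant, batch or day, so the fit has no replicate block. The members, lists and tests were chosen with earlier results of these data known. Single genes were named by a rule: called genes with a mean of at least 5 in the higher treatment and the same sign at both hours, up to 12 a direction, the 5 most abundant called genes, the 3 genes a direction with the smallest interaction p, and the organelle ID with the smallest p a direction. Genes outside that rule are the largest uncalled differences, the next in p, those with the largest differences at 12 h and ID neighbours, all picked after their values were seen. Alternatives changed the pseudocount, the filter, the scaling, the replicate block, the variance moderation, library weights and the libraries fitted, and left out each library in turn. For the run of IDs on Virad03 these were added after seeing the data.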

Additional observations from a re-analysis of the deposited data

How the results depend on the processing

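Over 3 and 6 h the count of 9 called genes was 18 with a pseudocount of 0.1, 4 without a filter, 882 with every library scaled to the same total, 1084 with array weights and 845 with the spread from all 42 libraries. It was 8 to 13 with a pseudocount of 0.5, quantile normalization, median-of-ratios scaling, a filter on the mean at 5 and the other variance settings. Leaving out each library gave 0 to 188 genes. Replicate numbers were checked first. Same-numbered T1 and T2 libraries deviated together at correlations of 0.12, 0.01 and -0.29 at 3 h. At 6 h these were 0.00, 0.47 and 0.56, and the crossed pairs of replicates 2 and 3 had -0.56 and -0.47. As not every same-numbered pair was over 0.1, the libraries were treated as sharing only a number. Whether they were paired at 6 h was not tested. With a block for the replicate number within the hour, 0 genes were called, with 3556 at an unadjusted p under 0.05. At 3 h the count of 0 became 4 without a filter, 1 without the trend, 3 with array weights and 94 with all 42 libraries, and 0 to 11 on leaving out each library. At 6 h it became 14 with all 42 libraries, and for the interaction it was 0 to 1 on leaving out each library. Fits to the 6 libraries of 1 hour alone called 0 genes at each hour. The cause of these moves was not tested.

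Scaling to the same total moved the median of all genes to -0.08, and list medians with it. The genes raised in T2 at 1 h went to -0.15, those higher in T1 at 0 h to -0.0283, those lower at 0 h to -0.15, those higher at 1 h to 0.0228, those lower at 1 h to -0.19, those higher at 48 h to -0.0642 and those lower at 48 h to -0.13. Under this scaling the lists higher at 0 h and at 48 h changed sign, against 0.07 and 0.04 as deposited, and so did the genes lowered in T2 at 12 h (-0.02, against 0.08) and from 1 to 12 h (-0.06, against 0.04). Genes raised in T2 from 1 to 12 h, at -0.01, were above 0 in some of the other settings. Genes higher in T1 at 12 h had a median of 1.18 with a pseudocount of 0.1. The share of the 10 most abundant genes, T1 minus T2, was 0.578 to 1.43 percentage points on leaving out each library. The difference in the inverse step of low values was -0.184 to -0.0786. The exact p passed 0.05 in some of these. Over all alternatives the log2 differences of single genes kept their direction in each case, with 622 on the same side of the threshold, 91 no longer called and 46 newly called. The alternative that keeps only called genes of at least 2-fold was not run, as there were 0 such genes. Low values limit what the data can show, since a change of a gene near 0 is understated on this scale.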
